A study of Mus musculus with 18 samples.

Results

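The dependence of the hypertonic response on mTOR was approached in mouse embryonic fibroblasts through the mTOR inhibitor Torin1, as a difference between 2 changes. It is the change from isotonic to hypertonic medium in cells given Torin1, minus the same change in cells without it. The arrays measure RNA and do not show how far Torin1 blocked mTOR. The members are the 12 arrays of 18 that carry WT in their title, 3 in each of 4 groups chosen by title: hypertonic with Torin1, isotonic with Torin1, hypertonic without Torin1 and isotonic without Torin1. All 4 groups come from 1 line of strain 129sv/ev, named NFAT5 wild-type 5.4 in the labels, so a result may belong to that line. Torin1 was given at 100 nM for 1 h before the medium was changed or kept isotonic. Isotonic medium is marked 300 and hypertonic medium 500 in the titles, without a unit, and the sources used here do not state the solute or the time in hypertonic medium. The 6 remaining arrays are titled KO, for Nfat5, none of them received Torin1, and they entered only an alternative fit on all 18 arrays. One of them, isotonic KO array 1, carries a wild-type genotype label. Total RNA was read on Affymetrix mouse gene arrays, and the deposited values are signals on the log2 scale, on which 1 unit is 2-fold.

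mTOR is a kinase that works in a pair of complexes, mTORC1 and mTORC2, and couples growth to nutrients and growth factors. mTORC1 drives ribosome production, sterol and lipid synthesis through SREBP factors, and amino acid synthesis through ATF4, while it restrains lysosome and autophagy genes. Torin1 competes with ATP and blocks both complexes. Cells in hypertonic medium lose water and take up or make organic osmolytes, and the transcription factor NFAT5 turns on the osmolyte transporters and several chaperones in this response.

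The promoters of a chaperone gene and an osmolyte transporter gene are shown. Hspa1a had the smallest p for the Torin1 difference among the genes named here, and Slc6a12 is a textbook NFAT5 target. Sequences are the 250 bases before the annotated start of each gene, upstream of its first exon, from RefSeq on GRCm38.p6. Hspa1a lies at chr17:34972157-34972406 on the minus strand and Slc6a12 at chr6:121342324-121342573 on the plus strand, the first of 5 listed starts. Capitals mark the only match in each window, on either strand, to the heat shock element GAANNTTC in Hspa1a and to the NFAT5 site TGGAAANNT in Slc6a12.
Hspa1a: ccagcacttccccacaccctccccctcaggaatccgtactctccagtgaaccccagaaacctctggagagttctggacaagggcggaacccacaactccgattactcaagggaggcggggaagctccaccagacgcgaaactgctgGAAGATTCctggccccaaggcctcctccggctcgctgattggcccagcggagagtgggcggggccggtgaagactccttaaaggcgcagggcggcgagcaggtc
Slc6a12: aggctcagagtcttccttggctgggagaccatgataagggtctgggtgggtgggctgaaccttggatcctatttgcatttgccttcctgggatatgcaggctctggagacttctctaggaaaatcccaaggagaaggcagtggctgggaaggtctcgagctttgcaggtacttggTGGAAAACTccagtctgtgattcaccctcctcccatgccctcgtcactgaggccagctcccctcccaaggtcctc
The match in Hspa1a begins 104 bases before the start, and 6.783% of the 27025 genes with such a window hold 1 or more matches to the same letters. The match in Slc6a12 begins 75 bases before the start, and 4.851% of the windows hold 1 or more. These are matches of letters, not measured binding.

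The arrays of a group correlated at 0.967 to 0.996 over the 15448 genes tested, and array medians over those genes ran from 8.64 to 8.74. The arrays with number 4 in their title stood apart in every group: none correlated above 0.974 with an array of number 1 or 2 of its group, while numbers 1 and 2 correlated at 0.991 or above. The labels do not explain the numbers 1, 2 and 4, which were taken here to pair the samples. Values within each number are therefore given below, in that order. A fit with the number as a block was run beside the fit without it, and both uses rest on that pairing. Of 12 fibroblast markers 11 passed the filter on dim genes, at group means of the list from 10.76 to 10.77, with Fap below it. Of 10 macrophage markers 5 passed, among them Csf1r, with list means of 6.31 in hypertonic Torin1 cells, 6.15 in isotonic Torin1 cells, 6.39 in hypertonic untreated cells and 6.14 in isotonic untreated cells. The 5 had a median hypertonic change of 0.33 with Torin1 and of 0.61 without. Averaged over both arms, the hypertonic effect was 0.89 for Csf1r (limma adjusted p = 0.0112) and 0.58 for Itgam (limma adjusted p = 0.0193, and 0.0522 without hypertonic Torin1 array 2). Their Torin1 differences were 0.29 ± 0.39 and -0.50 ± 0.28. The defining macrophage genes Ptprc and Adgre1 were below the filter. The 8 epithelial markers all passed at low signal, with list means of 6.67, 6.57, 6.66 and 6.54 in the same order of groups, and the part of either marker list in the results was not tested. In bulk samples fewer cells of a type and less RNA per cell cannot be told apart.

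No gene differed in its hypertonic change with Torin1 after adjustment for all genes tested (0 of 15448, 0%, smallest limma adjusted p = 1). At an unadjusted p under 0.05 there were 295 genes, or 1.91%, of which 151 (0.977%) had a higher and 144 (0.932%) a lower change with Torin1. Blocking on array number again called 0 genes (smallest adjusted p = 0.552), and 702 genes, or 4.54%, had an unadjusted p under 0.05. Estimates had a median standard error of 0.19, or 0.16 with the block. The 95% interval of the difference lay within 1 log2 unit of 0 for 13935 genes (90.2%), and for 15079 (97.6%) with the block, so that for those genes a difference of more than 2-fold lay outside the interval. For the others the interval reached past 2-fold. The share was smaller among strong responders. Of 70 genes raised at least 2-fold by hypertonic medium on average, 18 had such an interval, and 33 with the block. Of 32 genes lowered at least 2-fold these were 21 and 28, and of 15 osmolyte genes and NFAT5 targets 7 and 10. The labels do not state if separate cultures lie behind the arrays, and p-values then reflect array-to-array spread, which may be technical.

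The hypertonic change itself was measured in both arms. With Torin1 it passed for 386 genes (2.5%), 183 higher (1.18%) and 203 lower (1.31%), and without Torin1 for 977 genes (6.32%), 461 higher (2.98%) and 516 lower (3.34%). With the block the counts were 1651 (10.7%) with Torin1 and 2802 (18.1%) without. These counts do not test the difference between the arms, which is the test above. Across genes the changes of the 2 arms, which share no array, correlated at r = 0.816, a description over genes that are not independent, and their standard deviations across genes were 0.28 with Torin1 and 0.32 without. Within numbers 1, 2 and 4 that correlation was 0.600, 0.791 and 0.620. The count with Torin1 was 236 and 58 without hypertonic Torin1 arrays 1 and 2, 57, 102 and 192 without isotonic Torin1 arrays 1, 2 and 4, and 237 without hypertonic untreated array 2. The count without Torin1 was 322 and 285 without hypertonic untreated arrays 1 and 2, and 432, 429 and 589 without isotonic untreated arrays 1, 2 and 4.

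**Figure D1:**
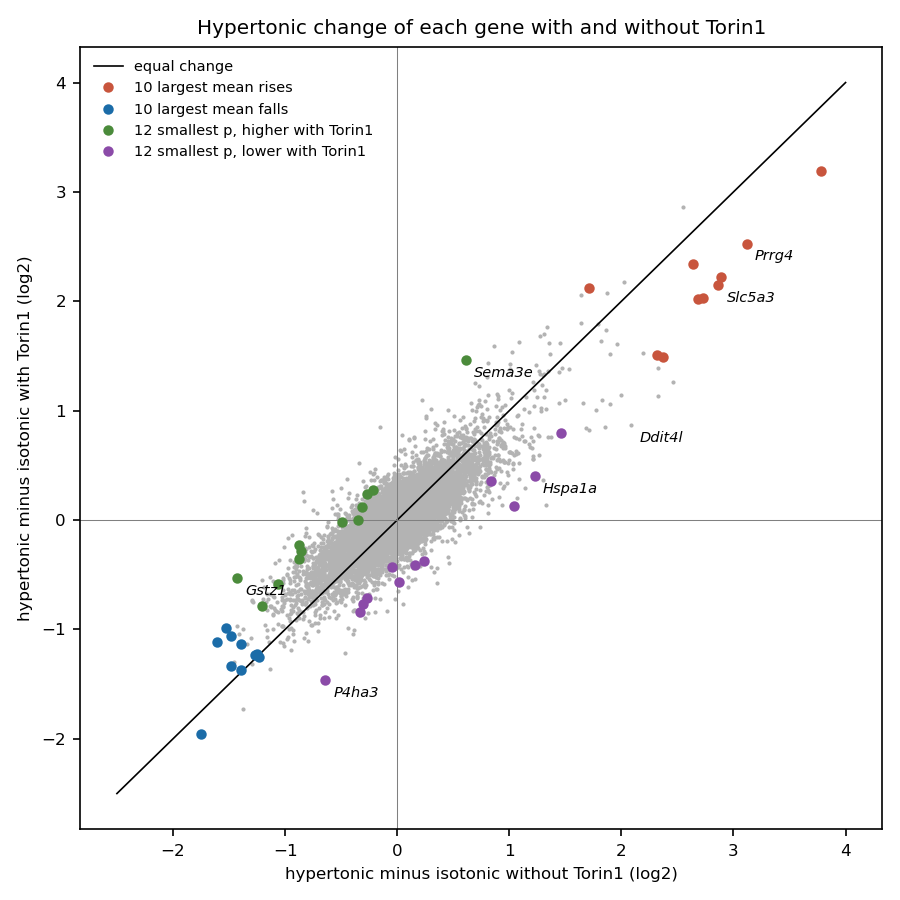
Hypertonic minus isotonic signal (log2) of each of the 15448 genes tested, without Torin1 on the horizontal and with Torin1 on the vertical axis, with the line of equal change. The 20 genes of largest mean rise or fall and the 24 named by smallest p are coloured. The 20 were ranked among called genes without overlap of hypertonic and isotonic arrays. Gene models and small RNAs were passed over in both picks. Most points lie along the line (r = 0.816).

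Among named genes whose hypertonic change was lower with Torin1, Hspa1a, an inducible chaperone that refolds proteins, had the smallest p. Its signal on arrays 1, 2 and 4 was 9.73, 9.55 and 9.58 in hypertonic Torin1 cells and 9.31, 9.24 and 9.10 in isotonic Torin1 cells, 10.72, 10.56 and 10.33 in hypertonic untreated cells and 9.23, 9.35 and 9.36 in isotonic untreated cells. Every hypertonic array lay above every isotonic one, and the hypertonic Torin1 arrays all lay below the hypertonic untreated ones, as they did for 8.03% of all genes. The hypertonic change was 1.32-fold with Torin1 (limma adjusted p = 0.0873, 0.0288 with the block, and 0.0494 without hypertonic untreated array 4) and 2.34-fold without it (limma adjusted p = 0.00069). The difference was -0.82 ± 0.16 (SE, n = 3 per group, limma unadjusted p = 0.00026, adjusted p = 1), with a 95% interval from -1.17 to -0.48, and -1.07, -0.90 and -0.50 in the 3 numbers. Its near-identical copy Hspa1b has no probe set that names it alone, and the probe set of Hspa1a could carry signal of both.

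P4ha3, a subunit of an enzyme that hydroxylates collagen, fell in both arms. Its signal was 10.30, 9.9998 and 10.01 in hypertonic Torin1 cells and 11.77, 11.34 and 11.59 in isotonic Torin1 cells, against 11.24, 10.94 and 10.94 in hypertonic untreated cells and 11.82, 11.66 and 11.57 in isotonic untreated cells. The hypertonic Torin1 arrays were the lowest 3 of the 12. The hypertonic change was -1.46 with Torin1 (limma adjusted p = 0.00209) and -0.65 without (limma adjusted p = 0.0222, lost without hypertonic untreated array 2 or isotonic untreated array 1 or 2), and the difference was -0.82 ± 0.20 (limma unadjusted p = 0.00159).

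Slc1a3, a glutamate and aspartate transporter, rose in both arms. Its signal was 7.49, 7.52 and 7.73 in hypertonic Torin1 cells and 6.42, 6.23 and 6.80 in isotonic Torin1 cells, 8.96, 8.49 and 8.48 in hypertonic untreated cells and 6.86, 6.70 and 6.88 in isotonic untreated cells. All hypertonic Torin1 arrays lay between the isotonic arrays and the hypertonic untreated arrays. The rise was 2.14-fold with Torin1 (limma adjusted p = 0.00864, not past without isotonic Torin1 array 1) and 3.55-fold without (limma adjusted p = 0.00069), a difference of -0.73 ± 0.23 (limma unadjusted p = 0.0092).

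Among the 12 genes with the smallest p for a lower difference, of which Slc1a3 is not one since it was named through the amino acid transporter list, were Man2b1 and Gm2a. Man2b1, which removes mannose from glycoproteins, changed by -0.76 with Torin1 (limma adjusted p = 0.0039) and by -0.30 without (adjusted p = 0.0725, 0.0377 with the block, and 0.0478 without hypertonic untreated array 4), and the difference was -0.46 ± 0.13. Gm2a, the cofactor for breakdown of GM2 ganglioside, changed by -0.85 with Torin1 (limma adjusted p = 0.0039) and by -0.33 without (adjusted p = 0.0713, 0.0355 with the block, and 0.0346 without hypertonic Torin1 array 1), a difference of -0.51 ± 0.14. Acta2, the smooth muscle actin of activated fibroblasts, had a difference of -0.38 ± 0.12, with a change of -0.43 with Torin1 (limma adjusted p = 0.0256) against -0.04 without (0.849). The call of Acta2 with Torin1 was lost in 6 of 12 fits that each left out 1 array. The remaining genes of the 12 were Ggnbp2os, Zfc3h1, Tlcd2, Phospho2, Mia2, Srsf5 and Fubp1, with differences from -0.92 in Tlcd2 to -0.44 in Fubp1.

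Among named genes whose hypertonic change was higher with Torin1, Nagk, which phosphorylates N-acetylglucosamine, had the smallest p. Its signal was 10.42, 10.36 and 10.35 in hypertonic Torin1 cells and 10.52, 10.75 and 10.54 in isotonic Torin1 cells, 9.53, 9.81 and 9.82 in hypertonic untreated cells and 10.64, 10.54 and 10.61 in isotonic untreated cells. The hypertonic untreated arrays were the lowest 3, and the hypertonic Torin1 arrays lay all above the untreated ones for 7.8% of all genes. The hypertonic change was -0.23 with Torin1 (limma adjusted p = 0.314) and -0.87 without (limma adjusted p = 0.00175), and the difference was 0.65 ± 0.15 (limma unadjusted p = 0.00093).

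Gstz1, an enzyme of phenylalanine and tyrosine breakdown, fell without Torin1. Its signal was 8.60, 8.56 and 8.28 in hypertonic Torin1 cells and 9.04, 9.13 and 8.87 in isotonic Torin1 cells, against 7.43, 7.71 and 7.44 in hypertonic untreated cells and 9.27, 8.84 and 8.74 in isotonic untreated cells. Hypertonic arrays were below isotonic ones in each arm, and the hypertonic groups of the 2 arms did not overlap. The change was -0.53 with Torin1 (limma adjusted p = 0.0976, and 0.0169 with the block) and -1.43 without (limma adjusted p = 0.00112), with a difference of 0.89 ± 0.21 and a 95% interval from 0.42 to 1.36.

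Rras, a small GTPase of the Ras family, fell in both arms. Its signal was 12.32, 12.26 and 12.31 in hypertonic Torin1 cells and 13.05, 13.09 and 13.10 in isotonic Torin1 cells, 11.81, 11.79 and 11.79 in hypertonic untreated cells and 13.08, 12.94 and 12.99 in isotonic untreated cells. The groups in hypertonic medium did not overlap. The fall was -0.78 with Torin1 (limma adjusted p = 0.00209) and -1.21 without (limma adjusted p = 6.71e-05), a difference of 0.42 ± 0.11. Sema3e, a secreted guidance cue, rose with Torin1. Its signal was 10.97, 10.52 and 10.40 in hypertonic Torin1 cells and 9.29, 9.25 and 8.97 in isotonic Torin1 cells, 9.97, 9.66 and 10.18 in hypertonic untreated cells and 9.26, 9.46 and 9.25 in isotonic untreated cells. The change was 1.46 with Torin1 (limma adjusted p = 0.0039) and 0.61 without (0.055, 0.0200 with the block, and under 0.05 without hypertonic Torin1 array 1 or 4), a difference of 0.85 ± 0.24. The other 8 were Arhgef10, Csrp2, Arfgap3, Pcbp3, Kyat1, Arf5, Galnt11 and Zfp330, with differences from 0.35 in Arf5 to 0.58 in Csrp2, a cytoskeletal LIM protein gene that fell without Torin1 (-0.86, limma adjusted p = 0.00327) and changed by -0.28 with it (0.256).

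**Figure D2:**
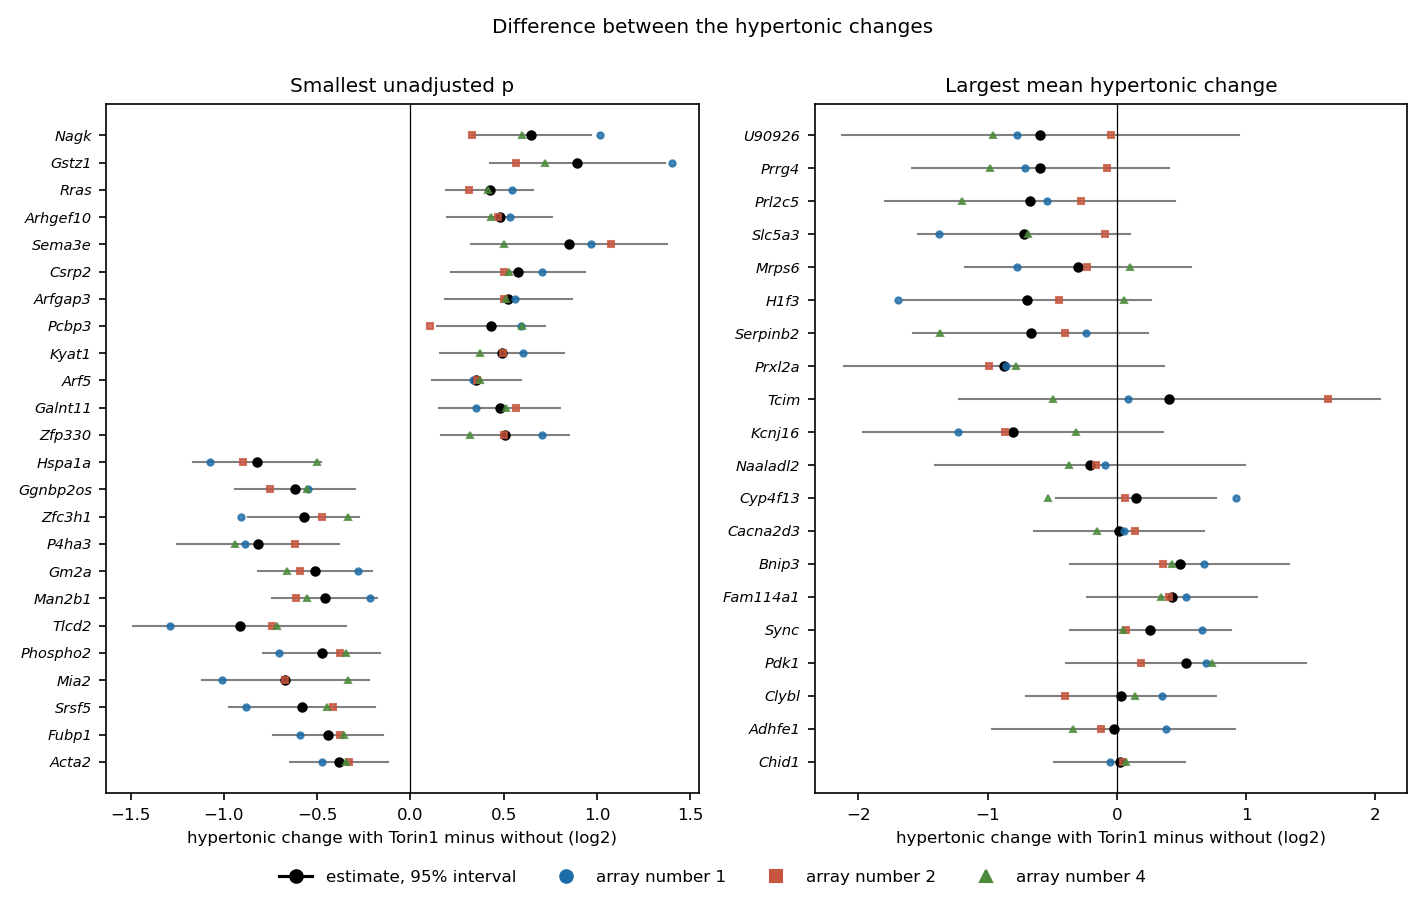
Hypertonic change with Torin1 minus the change without it (log2), with the 95% interval of the fit without a block and the value in each array number. Left, the 24 genes named for the smallest unadjusted p in each direction, chosen by that p. Right, the 20 genes of largest mean hypertonic change among called genes without overlap of hypertonic and isotonic arrays, where every interval includes 0. Gene models and small RNAs were passed over in both.

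Genes for organic osmolytes and other NFAT5 targets had a median difference of -0.30 over 15 measured genes, against 0.01 over all genes, and -0.62, -0.23 and -0.21 within numbers 1, 2 and 4. Of the 15 genes 8 lay below 0 in each number and 0 above it, where 14.2% and 15.2% of all genes did, and 5 had an unadjusted p under 0.05 in the lower direction with the block, against 2.08% of all genes. None passed the adjustment. In the fit without a block 1 of the 15 had an unadjusted p under 0.05, which was Hspa1a. The median without 1 array ran from -0.66 without hypertonic untreated array 4 to -0.20 without hypertonic untreated array 1.

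Slc5a3, which takes up myo-inositol, rose in both arms. Its signal was 10.65, 10.97 and 10.21 in hypertonic Torin1 cells and 8.52, 8.11 and 8.77 in isotonic Torin1 cells, 11.76, 11.63 and 10.88 in hypertonic untreated cells and 8.26, 8.68 and 8.75 in isotonic untreated cells. The hypertonic groups of the 2 arms overlapped, through array 4 without Torin1. The rise was 4.42-fold with Torin1 (limma adjusted p = 0.00481) and 7.28-fold without (0.00069), and the difference of -0.72 ± 0.37 had a 95% interval from -1.54 to 0.10 and values of -1.37, -0.09 and -0.69 in the 3 numbers. Mrps6, a mitochondrial ribosomal protein gene next to Slc5a3, rose 5.06-fold with Torin1 (limma adjusted p = 0.0039) and 6.22-fold without (0.00112), and its difference was -0.30 ± 0.40.

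Slc6a12, the betaine transporter whose promoter is shown above, had signals of 7.58, 8.31 and 7.12 in hypertonic Torin1 cells and 6.82, 6.60 and 7.07 in isotonic Torin1 cells, 9.39, 9.04 and 6.995 in hypertonic untreated cells and 6.71, 6.93 and 6.73 in isotonic untreated cells. In both arms arrays 1 and 2 were higher in hypertonic medium, while array 4 stayed near the isotonic level. The change was 0.84 with Torin1 (limma adjusted p = 0.486) and 1.69 without (0.0732, and 0.0161 with the block; 2.43 and 0.00247 without hypertonic untreated array 4), and the difference was -0.85 ± 0.72. Without the arrays of number 4 the difference was -1.17. The taurine transporter Slc6a6 and the neutral amino acid transporter Slc38a2 had differences of -0.20 ± 0.22 and -0.24 ± 0.22. Aqp1, a water channel, had -0.77, and Nfat5 itself -0.35 ± 0.24, with 0.10 with Torin1 (adjusted p = 0.854) and 0.45 without (adjusted p = 0.138, and 0.0131 with the block).

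Heat shock genes had a median difference of -0.17 over 19 measured genes, and -0.28, -0.10 and -0.04 in the 3 numbers. Of these 11 lay below 0 in each number and 1 above, where 14.2% and 15.2% of all genes did. Hspa4l, an HSP110 chaperone, had signals of 9.08, 9.52 and 8.16 in hypertonic Torin1 cells and 7.85, 8.16 and 7.31 in isotonic Torin1 cells, 10.29, 10.29 and 8.63 in hypertonic untreated cells and 7.76, 7.94 and 7.50 in isotonic untreated cells. Array 4 was lowest in each group. The hypertonic change was 1.15 with Torin1 (limma adjusted p = 0.229, and 0.00661 with the block) and 2.00 without (limma adjusted p = 0.0252), a call lost without hypertonic untreated array 1 or 2 or any isotonic untreated array. The difference was -0.85 ± 0.63, and -1.29, -0.99 and -0.28 in the 3 numbers. The HSF1 chaperone genes Hsph1 (-0.20), Hspb1 (-0.35) and Chordc1 (-0.40) lay lower and Dnajb1 (0.17) and Hspa8 (0.11) higher, none at an unadjusted p under 0.05. The heat shock list shares at least the gene of its lowest difference with the osmolyte and NFAT5 list, so the 2 medians are not independent.

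**Figure D3:**
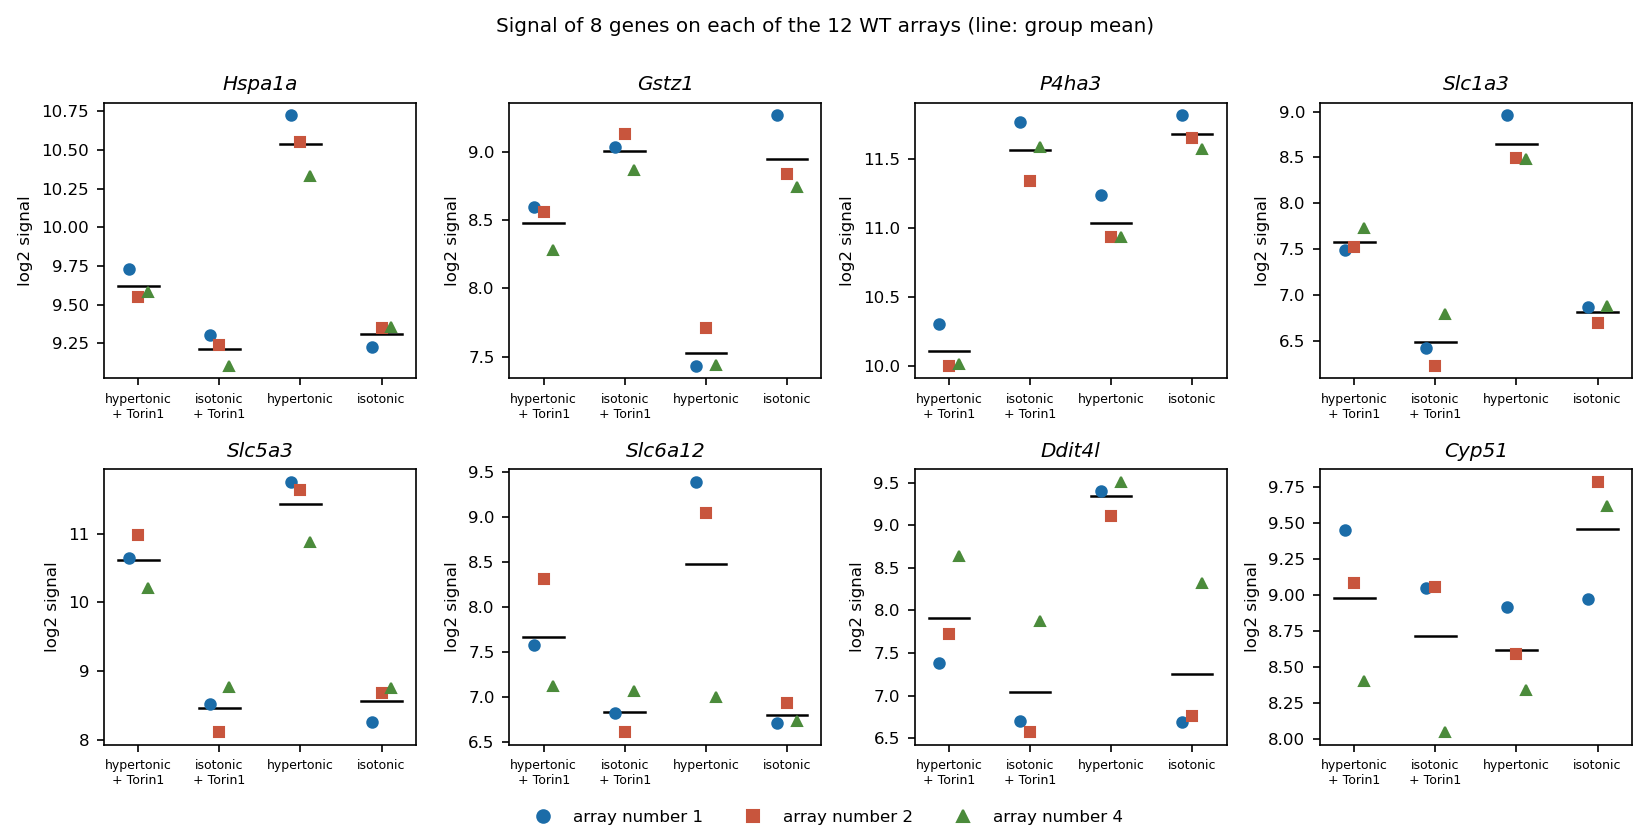
Signal (log2) of 8 genes on each of the 12 arrays, by group, with symbols for array numbers 1, 2 and 4 and a line at the group mean. For Hspa1a and P4ha3 the hypertonic Torin1 arrays all lie below the hypertonic untreated ones; Slc6a12 on array 4 stays near the isotonic level in both arms.

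The list of mTORC1 regulators, most of which restrain it, had a median difference of -0.02 over 21 measured genes, and Rragd was its 1 gene at an unadjusted p under 0.05. Ddit4l, whose product inhibits mTORC1 signalling, had the largest difference of all genes downward. Its signal was 7.38, 7.73 and 8.64 in hypertonic Torin1 cells and 6.70, 6.57 and 7.87 in isotonic Torin1 cells, against 9.41, 9.11 and 9.51 in hypertonic untreated cells and 6.69, 6.76 and 8.32 in isotonic untreated cells. Array 4 was already high in isotonic medium in both arms. The change was 0.87 with Torin1 (limma adjusted p = 0.424, and 0.0287 with the block) and 2.09 without (limma adjusted p = 0.0273, lost without hypertonic or isotonic untreated array 1 or 2). The difference was -1.22 ± 0.67, with a 95% interval from -2.69 to 0.25. Rragd, a GTPase of the Rag family that brings mTORC1 to the lysosome, went the other way, with a difference of 0.64 ± 0.27 and 0.78, 0.48 and 0.66 in the 3 numbers. Castor2 and Fnip1 had -0.52 ± 0.25 and 0.27 ± 0.14. The stress genes Ddit4 and Sesn2 had -0.43 ± 0.57 and -0.28 ± 0.44, both with opposite signs in numbers 1 and 2.

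ATF4 targets, which make and import amino acids, had a median difference of -0.07 over 36 genes, and -0.63, 0.48 and -0.04 in the 3 numbers. The median Torin1 effect on this list was -0.51 in hypertonic and -0.43 in isotonic medium. Within it Cars and Eprs, which charge transfer RNA with cysteine and with glutamate and proline, had differences of -0.46 ± 0.42 and 0.48 ± 0.35. Amino acid transporters had a median of -0.11 over 28 genes. Slc38a4 and Slc7a6 had -0.48 ± 0.22 and -0.33 ± 0.17, and the arginine transporter Slc7a1 -0.69 ± 0.45.

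Sterol genes had the largest median of the gene groups, 0.44 over 20 genes, with -0.14, 0.58 and 0.78 in numbers 1, 2 and 4. All 20 estimates were above 0, from 0.05 in Ebp to 1.10 in Cyp51, and also after quantile normalization, median centring or cyclic loess. Of the 20, 2 had an unadjusted p under 0.05 without the block and 8 with it (all higher, where 2.46% of all genes were). Above 0 in every number were 7 of the 20, as were 15.2% of all genes, and none of the 20 passed the adjustment. The median hypertonic change was 0.08 with Torin1 and -0.43 without, and read the other way the median Torin1 effect was -0.06 in hypertonic and -0.47 in isotonic medium. Without the arrays of number 4 the median difference was 0.23.

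Cyp51, which removes a methyl group from lanosterol, had signals of 9.45, 9.08 and 8.40 in hypertonic Torin1 cells and 9.04, 9.06 and 8.04 in isotonic Torin1 cells, 8.91, 8.59 and 8.34 in hypertonic untreated cells and 8.97, 9.79 and 9.62 in isotonic untreated cells. The groups with Torin1 overlapped, and without Torin1 every isotonic array was above every hypertonic one. The difference was 1.10 ± 0.47 (limma unadjusted p = 0.0388). Insig1, a sterol sensor and SREBP target, had 1.01 ± 0.54, the farnesyl diphosphate synthase Fdps 0.66 ± 0.34 and the mevalonate kinase Mvk 0.52 ± 0.26. Pmvk, the next kinase of the pathway, had 0.35 ± 0.15 (limma unadjusted p = 0.0365). Fatty acid synthesis genes had a median of 0.10 over 17 genes, with Srebf1 at 0.30 ± 0.18 and Fads1 at 0.34 ± 0.19.

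Ribosome biogenesis genes had a median difference of -0.08 over 37 genes. When the block was used, 15 were higher in hypertonic medium with Torin1 (background 5.63%) and 21 without (background 9.08%). In the fit without a block these were 1 (background 1.18%) and 3 (background 2.98%). Cytosolic ribosomal protein genes had a median difference of 0.05 over 50 genes. In the ribosomal list Rpl5 had -0.55 ± 0.21 (limma unadjusted p = 0.025). DNA replication genes had a median of 0.22 over 36 genes, with -0.20, 0.11 and 0.67 in the 3 numbers and -0.03 without the arrays of number 4. Mitosis genes had 0.07 over 37 genes. Histone genes had -0.08 over 19 genes, and -0.36 without the arrays of number 4. H2bc8, a histone H2B gene, had signals of 10.20, 9.73 and 9.56 in hypertonic Torin1 cells and 9.25, 9.17 and 8.60 in isotonic Torin1 cells, 10.68, 10.39 and 10.78 in hypertonic untreated cells and 9.31, 8.88 and 8.50 in isotonic untreated cells. All hypertonic Torin1 arrays lay below the hypertonic untreated ones, and the difference was -0.89 ± 0.34. Histone genes are near copies of each other, so probe sets may share signal.

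Lysosome and autophagy genes had a median of -0.03 over 36 genes, with 8 above and 10 below 0 in every number (15.2% and 14.2% of all genes). With hypertonic medium 3 of the 36 rose and 0 fell with Torin1 (background 1.18% and 1.31%). Without Torin1 2 rose and 1 fell (background 2.98% and 3.34%). When the block was used, 3 rose and 2 fell with Torin1, and 4 rose and 5 fell without. With the block 10.7% and 18.1% of all genes passed in either direction. The proton pump subunit Atp6v0d1 had 0.39 ± 0.18, and the cathepsins Ctsb and Ctsd -0.28 ± 0.14 and -0.21 ± 0.11. FOXO targets had a median of 0.03 over 31 genes and NRF2 targets 0.06 over 23, among them Gclc, for the limiting step of glutathione synthesis, at -0.41 ± 0.21. In the p53 list, with a median of -0.16 over 23 genes, Ei24 had -0.45 ± 0.21 and Mdm2, which breaks down p53, -0.28 ± 0.17. NF-kB and inflammatory genes had a median of 0.03 over 31 genes, and of 0.05, 0.14 and -0.11 in the 3 numbers. It ran from -0.18 without isotonic untreated array 4 to 0.40 without isotonic Torin1 array 4. The NF-kB subunit Nfkb2 had signals of 10.21, 10.48 and 10.24 in hypertonic Torin1 cells and 10.40, 10.64 and 10.34 in isotonic Torin1 cells, 9.76, 9.66 and 9.70 in hypertonic untreated cells and 10.44, 10.21 and 10.13 in isotonic untreated cells. Its hypertonic untreated arrays were the lowest 3, and the difference was 0.40 ± 0.17. The subunit Relb had 0.46 ± 0.21. Immediate early genes had a median of 0.10 over 34 genes, with Dusp1, a phosphatase of MAP kinases, at -0.38 ± 0.17.

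Interferon-stimulated genes had a median of -0.07 over 23 genes and of 0.34 without isotonic untreated array 1. It ran from -0.76 without isotonic untreated array 4 to 0.79 without isotonic Torin1 array 4, so its sign changed with the array left out. Endoplasmic reticulum chaperones had 0.05 over 29 genes, the circadian clock list 0.00 over 17 and the list of glycolysis and HIF1 targets 0.06 over 33. Actin and SRF targets had -0.06 over 20 genes, with 8 below and 2 above 0 in every number. Collagens and matrix genes had -0.05 over 41, with 12 below and 4 above. Of all genes 14.2% lay below and 15.2% above 0 in every number. Ion transport and cell volume genes had -0.02 over 31 genes. Outside that list the potassium channel genes Kcnj2 and Kcnj16, named after their values were seen for Kcnj2 and by the size of their mean rise for Kcnj16, had differences of -1.19 ± 0.64 and -0.80 ± 0.53.

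**Figure D4:**
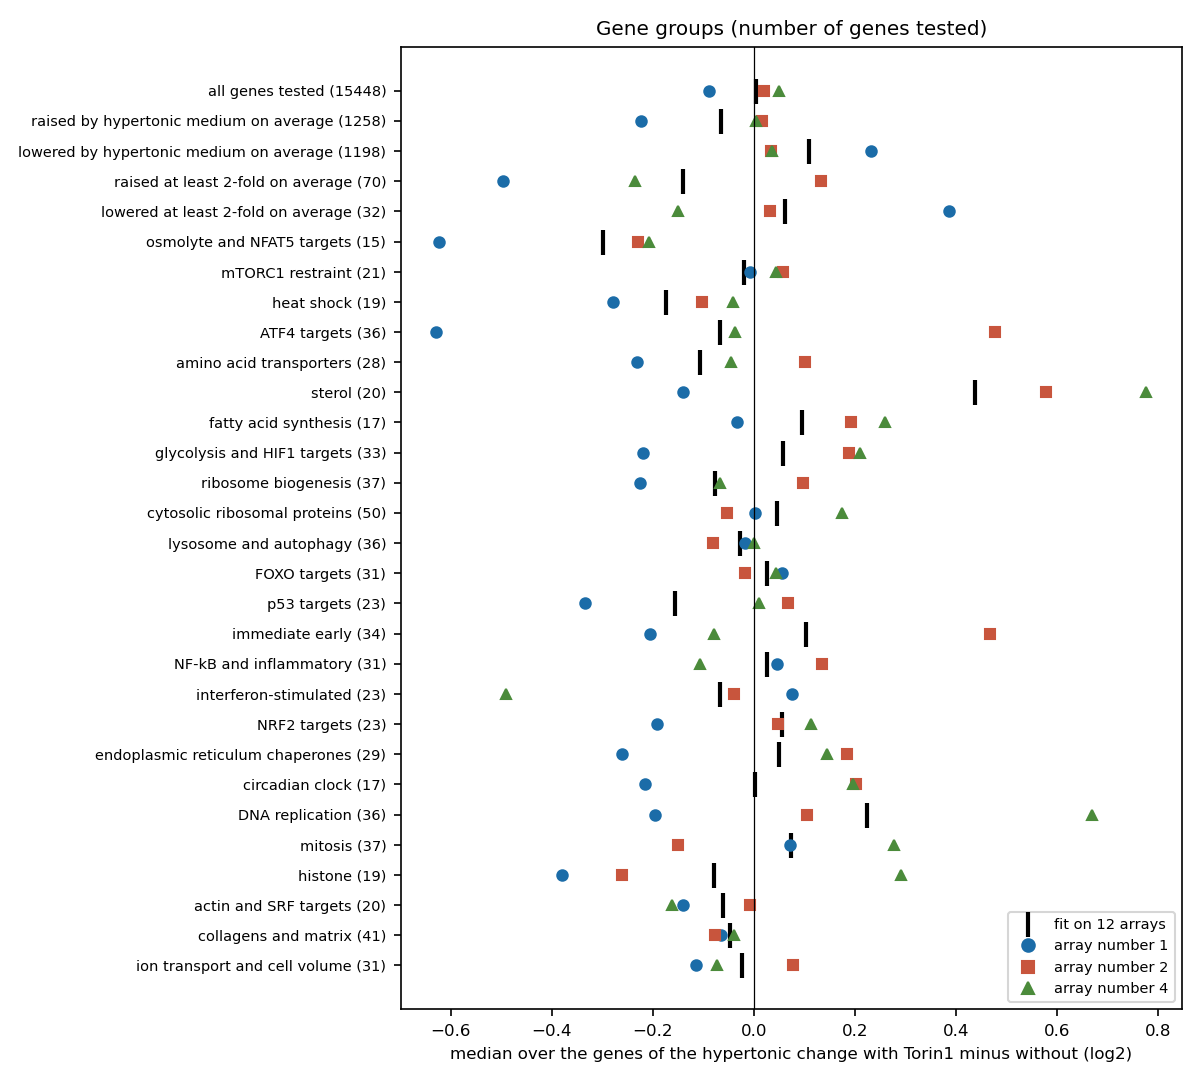
Median over the genes of each group of the hypertonic change with Torin1 minus the change without it (log2), from the fit on 12 arrays (bar) and within array numbers 1, 2 and 4 (symbols). The osmolyte group lies below 0 in every number, as do heat shock genes, actin and SRF targets, and collagens and matrix genes. The sterol group lies below 0 in number 1 and above it in numbers 2 and 4.

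Genes were also grouped by the mean of both hypertonic changes. In this balanced design that estimate is uncorrelated with that of the Torin1 difference if the arrays of both arms vary equally, which was not tested. The mean effect passed for 2456 genes (15.9%), of which 1258 (8.14%) rose and 1198 (7.76%) fell, and for 4375 with the block (28.3%). It was 1606 without hypertonic Torin1 array 2 and 1612 without hypertonic untreated array 2. The raised genes had a median Torin1 difference of -0.07 (-0.22, 0.02 and 0.00 in the 3 numbers) and the lowered genes one of 0.11 (0.23, 0.03 and 0.04), against 0.01 over all genes. The 70 genes raised at least 2-fold (0.453%) had a median hypertonic change of 1.34 with Torin1 and 1.36 without, and a median difference of -0.14 that was -0.50, 0.13 and -0.24 in the 3 numbers. It ran from -0.40 without hypertonic untreated array 4 to 0.02 without hypertonic Torin1 array 4. The 32 genes lowered at least 2-fold (0.207%) had -1.12 with Torin1 and -1.26 without, and a median difference of 0.06 that was 0.39, 0.03 and -0.15 in the 3 numbers. It ran from 0.01 without hypertonic Torin1 array 1 to 0.17 without isotonic untreated array 2.

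Called genes were ranked by mean change where hypertonic and isotonic arrays did not overlap, with gene models and small RNAs passed over. In this ranking the largest mean rises were those of U90926, Prrg4 and Prl2c5, of 3.49, 2.82 and 2.56. Their Torin1 differences were -0.59 ± 0.70, -0.59 ± 0.45 and -0.67 ± 0.51. Prrg4, a membrane protein with a Gla domain, had signals of 9.14, 9.91 and 8.34 in hypertonic Torin1 cells and 6.64, 6.67 and 6.50 in isotonic Torin1 cells, 10.06, 10.17 and 9.41 in hypertonic untreated cells and 6.85, 6.85 and 6.59 in isotonic untreated cells. Its hypertonic groups overlapped between the arms, and hypertonic and isotonic arrays did not, as the ranking required. The largest mean falls in the same ranking were Naaladl2 (-1.85), Cyp4f13 (-1.41) and Cacna2d3 (-1.38), with Torin1 differences of -0.21 ± 0.54, 0.15 ± 0.28 and 0.02 ± 0.30. Bnip3 and Pdk1, which act in the removal of mitochondria and in pyruvate use, had 0.49 ± 0.39 and 0.54 ± 0.42. The difference reached 1 log2 unit for 7 genes, named after their values were seen: Cyp51, Insig1 and Asb5 higher, and Ddit4l, P2ry10b, Kcnj2 and Slco4a1 lower. None of the 7 passed the adjustment.

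Read the other way, the Torin1 effect in hypertonic medium passed for 0 genes (0%, smallest limma adjusted p = 0.0662, 1774 genes or 11.5% at an unadjusted p under 0.05), and with the block for 283 genes (1.83%), of which 152 (0.984%) were higher and 131 (0.848%) lower with Torin1. In isotonic medium it passed for 0 genes with and without the block (383 genes, or 2.48%, at an unadjusted p under 0.05 without it and 919, or 5.95%, with it). With the block P4ha3 differed by -0.93 in hypertonic medium (limma adjusted p = 0.00478, and 0.103 without the block), Hspa1a by -0.92 (0.00777, and 0.0662), Slc1a3 by -1.06 (0.0117, and 0.103), Ddit4l by -1.43 (0.0195, and 0.286) and Rragd by 0.84 (0.0112, and 0.207). In isotonic medium the same genes differed by -0.12, -0.09, -0.34, -0.21 and 0.20. These genes were picked by the p or the size of their Torin1 difference. The Torin1 effects in the 2 media make up that difference on the same arrays, so these values are no separate support.

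Leaving out isotonic untreated array 1, 0 genes passed for the Torin1 difference (0%, smallest limma adjusted p = 1) and 315 (2.04%) had an unadjusted p under 0.05. With the block as well the count was 0 (smallest adjusted p = 0.338), and 811 genes (5.25%) had an unadjusted p under 0.05. The difference of Hspa1a was then -0.78, of P4ha3 -0.88, of Slc1a3 -0.75, of Gstz1 0.73, of Nagk 0.62, of Slc5a3 -0.57 and of Cyp51 1.35. Ddit4 changed to 0.01 and Sesn2 to 0.11. Among the gene groups the sterol median was 0.56, with 7 of 20 genes at an unadjusted p under 0.05, the osmolyte median -0.34, the heat shock median -0.09 and the ATF4 median 0.12. Endoplasmic reticulum chaperones had 6 genes of 29 and DNA replication genes 4 of 36 at an unadjusted p under 0.05, where both had 0 with the array.

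Leaving out all arrays of number 4, 0 genes passed for the Torin1 difference (smallest limma adjusted p = 0.119, for Ddit4l at -1.62). The difference of Hspa1a was then -0.98, of Hspa4l -1.14, of P4ha3 -0.75, of Slc5a3 -0.73 and of Kcnj2 -1.40, and the osmolyte median was -0.41.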

How the data were processed

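Total RNA of 12 wild-type arrays was compared. The deposited values are log2 signals made by the authors with RMA in R 2.11.1, per the submitters' processing notes, for 34760 probe sets; they were used as they are. A genome build was not given in the sources used here. Of the probe sets 21640 name 1 gene (21553 matched the GRCm38.p6 gene table), 1321 several and 11799 none. A gene was its brightest probe set, and genes with a group mean above 5.84 (the 30th percentile) were tested, 15448 in all. Another 8390 probe sets without a single gene were fitted apart (0 called, 485 at an unadjusted p under 0.05).

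limma 3.58.1 in R 4.3.3 fitted a mean per group (8 residual degrees of freedom, 3.16 prior), with Benjamini-Hochberg adjustment over all genes and calls at an adjusted p under 0.05. Errors are standard errors. Pairing by the title numbers 1, 2 and 4 was checked: residuals of arrays with the same number correlated at 0.241 to 0.848 for every pair of groups, those of different numbers at -0.785 to 0.627, so blocked values are given. These ranges overlap, and 9 of the 12 arrays lay closest to an array of the same number. Since number 4 stood apart in every group, the check bears mainly on number 4 and less on the pairing within numbers 1 and 2. The fit was tested on simulated data. Named genes are the 12 with the smallest p in each direction, the 10 largest mean rises and falls, the 4 smallest p of each list, a fixed set, and 7 with the largest differences. Mean rises and falls had to be called, without overlap between hypertonic and isotonic arrays. Except in the lists and the fixed set, gene models, clone names, small RNAs, and olfactory and vomeronasal receptor genes were passed over. Members and lists were chosen with earlier results of these data known. Precision is limited by the number of arrays.

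Alternatives were a filter at the 50th percentile or none, averaged probe sets per gene, median centring, quantile normalization, cyclic loess, array weights, a robust trended prior, all 18 arrays, the replicate block, each number left out, and each array left out in turn.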

Additional observations from a re-analysis of the deposited data

Results flagged for a closer look

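In 8 of the 172 named genes the hypertonic change ran one way with Torin1 and the opposite way without it in each of the 3 array numbers. The share of all genes tested with this pattern was not computed, so the count cannot be read as more or fewer than usual. The difference between the changes was itself tested by limma and did not pass the adjustment for any of them. Higher with Torin1 were Cyp51 (1.10), which makes sterols, Rragd (0.64), a Rag GTPase, Zfp330 (0.51), Kyat1 (0.49), which acts on kynurenine, and Pcbp3 (0.43). Lower with Torin1 were Ggnbp2os (-0.62), Zfc3h1 (-0.57), of nuclear RNA decay, and the cathepsin Ctsd (-0.21). All of these were named for a small p of the same difference, either over all genes or within their list, so the pattern is no separate support.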

How the results depend on the processing

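The Torin1 difference was called for 0 genes under every alternative run, with the smallest limma adjusted p between 0.0789 with array weights and 1. Of 4454 values of single genes under alternatives 4391 moved by less than the spread between replicates and 63 by more, none with a call, and of 910 group medians 59 moved by more. The replicate block gave 1651 genes for the hypertonic effect with Torin1 (386 without it), 2802 without Torin1 (977), 4375 for the mean effect (2456) and 283 for Torin1 in hypertonic medium (0), and left 0 calls for the Torin1 difference and for Torin1 in isotonic medium. With isotonic untreated array 1 also left out these were 1835, 1955, 4040 and 843, and 297 for Torin1 in isotonic medium. Array weights gave 1861, 4766, 5324 and 1099. Without number 4 the counts were 1221, 2809, 4163 and 228. Without number 1 they were 0, 0 and 356, and without number 2 they were 0, 0 and 78, for the hypertonic effect with Torin1, without it and on average. For Torin1 in hypertonic medium the count was 1 after quantile normalization, 1 with cyclic loess, 2 with the trended prior and 18 with all 18 arrays. Leaving out each array in turn gave 57 to 514 genes with Torin1, 285 to 1407 without, 1606 to 2962 for the mean effect, 0 to 1 for Torin1 in hypertonic medium and 0 to 1 in isotonic medium. The causes were not tested.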
